A study of Homo sapiens with 6 samples.

Results

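PLAU, PLAT, PLAUR and SERPINE2, which encode the plasminogen activators, the cell surface receptor of urokinase and a serpin that inhibits both activators, were followed in TC28a2, a human chondrocyte cell line made immortal. The 4 genes were chosen by name as rows of a table of 28395 Entrez gene IDs. Cells had been transfected with a ZEB1 overexpression vector or with a control vector and were taken 48 h later, with 3 libraries for each vector. ZEB1 is a zinc finger transcription factor known for repressing epithelial genes. All 6 libraries came from this single cell line, and the labels say neither which promoter drives the vector nor what share of the cells took it up. The libraries were made by DRUG-seq, a low-cost multiplexed form of RNA-seq.

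Urokinase (PLAU) and tissue plasminogen activator (PLAT) are serine proteases that cut plasminogen into plasmin, which degrades fibrin and matrix proteins and activates pro-metalloproteinases. The urokinase receptor (PLAUR) is a GPI-anchored protein that holds urokinase at the cell surface, and serpins trap the activators in covalent complexes that endocytic receptors then clear. In cartilage, plasmin is known as an activator of collagenases, and PLAU, PLAUR and SERPINE2 are counted among the secreted or shed products of senescent cells.

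The promoters of PLAU and PLAUR are shown because these mRNAs were the members with the smallest p-values. Windows of 250 bases before to 50 bases after an annotated start, from RefSeq on GRCh38.p14, were searched for CAGGTG (the E-box that ZEB1 binds), TGANTCA (the AP-1 site) and TATAAA, each on both strands. These motifs do not overlap each other in the windows shown, and capitals mark the matches. PLAU has 2 windows in the RefSeq table, PLAUR 1 and SERPINE2 2, and PLAT was not searched. The windows printed, each 5′ to 3′ in the direction of the gene, are chr10:73910882-73911181 on the plus strand for PLAU, where this window was picked over the other for its matches, and chr19:43670120-43670419 on the minus strand for PLAUR.
PLAU: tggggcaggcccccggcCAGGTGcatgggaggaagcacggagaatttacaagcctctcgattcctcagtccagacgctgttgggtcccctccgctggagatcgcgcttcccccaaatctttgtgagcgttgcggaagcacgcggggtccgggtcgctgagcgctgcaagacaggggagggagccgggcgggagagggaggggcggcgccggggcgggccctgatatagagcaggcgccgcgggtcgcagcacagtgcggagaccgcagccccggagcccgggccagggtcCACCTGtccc
PLAUR: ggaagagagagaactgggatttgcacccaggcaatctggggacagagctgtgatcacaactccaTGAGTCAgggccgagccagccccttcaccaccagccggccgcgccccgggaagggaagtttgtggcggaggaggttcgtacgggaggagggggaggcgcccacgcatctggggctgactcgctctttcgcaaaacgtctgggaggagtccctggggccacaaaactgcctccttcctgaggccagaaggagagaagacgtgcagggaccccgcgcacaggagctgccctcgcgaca

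The PLAU window held the E-box sequence at 2 places, starting 233 bases before and at base 41 after the annotated start, the second on the opposite strand. The PLAUR window held 1 AP-1 sequence, starting 186 bases before the start. Among all 35116 promoter windows of that length, 20.6% held CAGGTG at least once, 7.71% held TGANTCA and 11.5% held TATAAA. The share of windows with 2 matches, and the share of genes with a match in any window, were not computed. The other PLAU window and both SERPINE2 windows held none of the 3 motifs. A match is a description of the letters and was not tested as a binding site. Sequence outside these windows was not searched, so control elements farther from the start are not covered.

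The ZEB1 libraries were shallower than the controls: they summed to 1277632, 1621270 and 3316228 counts for ZEB1 replicates 1, 2 and 3, against 5359200 to 5878640 counts for the controls. ZEB1 mRNA, the check of the labels, stood at 12267, 14047 and 6894 CPM in ZEB1 replicates 1, 2 and 3, against 20.8 to 32.6 CPM in the controls, where CPM is counts scaled to a common library total with TMM factors. Its log2 fold change was 8.79 (SE 0.31, edgeR quasi-likelihood test, adjusted p = 2.37e-13), and reads of the vector and of the endogenous gene were not separated. The biological coefficient of variation was 35.2% within the ZEB1 libraries and 18.8% within the controls. Of 12 chondrocyte markers 1 had enough counts to be tested, SOX9, at 68.3 ± 8.88 CPM with the ZEB1 vector and 67.3 ± 14.5 CPM in the controls (SD, n = 3 each). COL2A1 and ACAN, which define cartilage matrix, had 0 counts in each ZEB1 library and 0 to 8 counts in the controls. Epithelial markers summed to 2.67 to 4.17 CPM in the ZEB1 libraries and 2.94 to 4.74 CPM in the controls, and 0 of 6 could be tested. Leukocyte markers summed to 6.22 to 14.0 CPM in the ZEB1 libraries and 12.9 to 17.1 CPM in the controls (1 of 6 tested), with CD3E at 0. Fibroblast markers summed to 408 to 416 CPM in the ZEB1 libraries and 451 to 507 CPM in the controls (4 of 8 tested). Most of this was COL1A1, at 251 ± 15.6 CPM with the ZEB1 vector and 315 ± 27.5 CPM in the controls (SD, n = 3 each). All ZEB1 libraries lay below all controls for COL1A1, as in 8.16% of tested genes. Its log2 fold change was -0.33 (SE 0.15, unadjusted p = 0.0345 and adjusted p = 0.485 in edgeR). Endothelial markers summed to 8.36 to 8.89 CPM in the ZEB1 libraries and 1.44 to 2.77 CPM in the controls (1 of 5 tested). Of these, PECAM1 had 4, 12 and 22 counts in ZEB1 replicates 1, 2 and 3, against 9, 6 and 11 counts in control replicates 1, 2 and 3. Its ZEB1 libraries all lay above the controls in CPM, as in 6.96% of tested genes. The log2 fold change of PECAM1 was 2.04 (SE 0.87, unadjusted p = 0.0293 and adjusted p = 0.462 in edgeR). The other endothelial markers, VWF, CDH5, KDR and TEK, had 0 to 6 counts in any library, CDH5 with 0 in each ZEB1 library and TEK with 6 in ZEB1 replicate 1 alone. The part of these markers in the results was not tested.

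None of the 4 members passed the edgeR threshold of an adjusted p of 0.05 over 11329 tested genes, at which 1 gene, ZEB1 itself, was called (0.00883% of those tested). At an unadjusted p under 0.05 there were 2 members, PLAUR and PLAU, both lower with the ZEB1 vector. Of all tested genes 9.4% had such a p, 3.57% lower and 5.83% higher with the ZEB1 vector. The members called were 0 with DESeq2, 0 with limma-voom and 0 with limma-voom with quality weights, which called 201 genes (10.1% of the 1982 given an adjusted p), 58 genes (0.512%) and 154 genes (1.36%). DESeq2 gave PLAT no adjusted p, so PLAT could not be called there. The groups did not overlap in 1 member, PLAUR, where all ZEB1 libraries lay below all controls. Among tested genes 15.1% did not overlap, and 8.16% lay all below. The 4 genes together took 430 to 562 CPM in the ZEB1 libraries and 588 to 619 CPM in the controls. All 4 passed the filter on low counts.

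**Figure D1:**
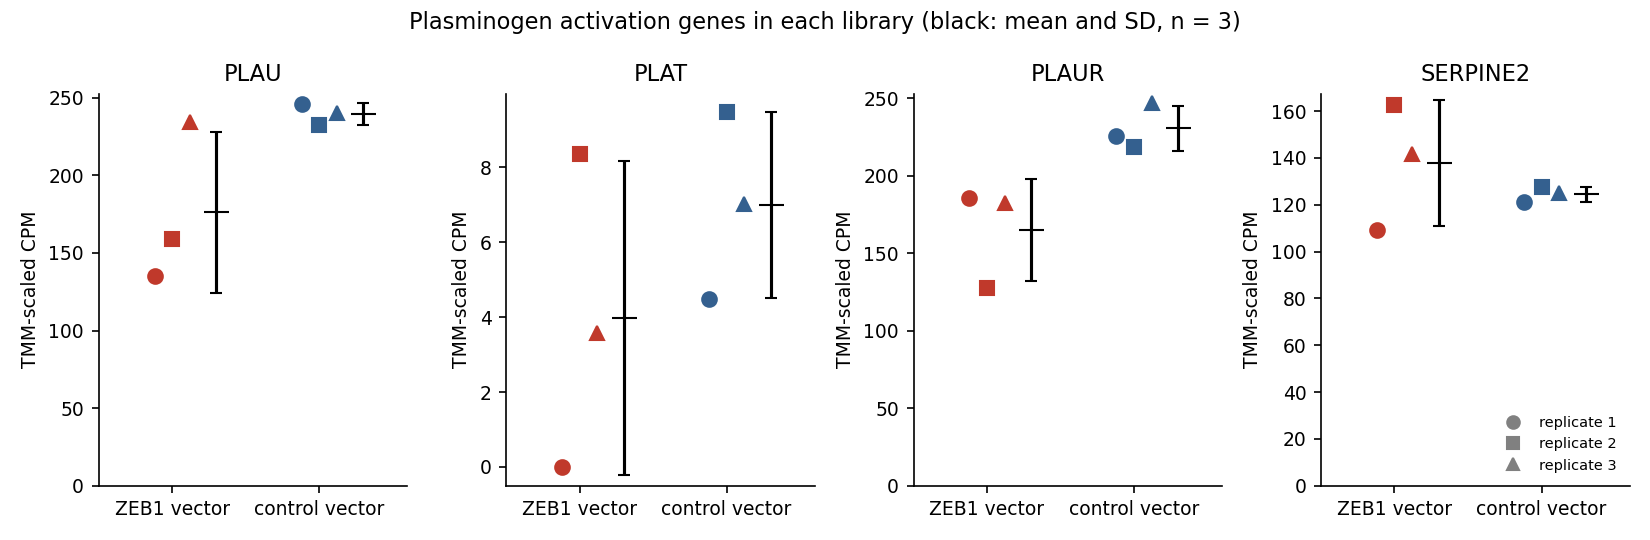
TMM-scaled CPM of PLAU, PLAT, PLAUR and SERPINE2 in each ZEB1 vector and control vector library, with symbols for replicate numbers and black bars for the mean and SD (n = 3). PLAU and PLAUR are near 240 and 231 CPM in the controls with a narrow spread, and the ZEB1 libraries spread from 135 to 234 CPM for PLAU and from 127 to 186 CPM for PLAUR.

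PLAU (Entrez 5328, chromosome 10, 73908832 to 73917494, plus strand, GRCh38.p14), the urokinase gene, had 152, 247 and 787 counts in ZEB1 replicates 1, 2 and 3, against 1535, 1274 and 1473 counts in control replicates 1, 2 and 3. Scaled for depth, this was 135, 159 and 234 CPM with the ZEB1 vector, against 246, 232 and 240 CPM with the control vector. ZEB1 replicates 1 and 2 lay well below every control, while replicate 3 lay inside the control range. Before TMM scaling the overlap was just lost, with 237.3 CPM in ZEB1 replicate 3 and 237.7 CPM in control replicate 2.

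The means were 176 ± 51.9 CPM with the ZEB1 vector and 240 ± 7.01 CPM with the control vector (SD, n = 3 each), a ratio of 0.735. The log2 fold change was -0.43 (SE 0.18), with a 95% interval of -0.80 to -0.05 that is not adjusted for the number of genes. In edgeR the unadjusted p was 0.0278 and the adjusted p 0.460. The call turned on ZEB1 replicate 3: without it the log2 fold change was -0.71 (SE 0.16) and the edgeR adjusted p 0.0173, in a fit that called 3.38% of its genes. Without ZEB1 replicate 1 the value was -0.28, and with replicate 3 as the only ZEB1 library it was -0.04, an alternative added after seeing the data. Replicate 3 was also the deepest ZEB1 library and the one with the least ZEB1 mRNA, so the depth of a library and its ZEB1 mRNA cannot be told apart here. With all libraries thinned to 1277632 counts the log2 fold change was -0.38 (SE 0.19). In bulk RNA, fewer cells expressing a gene and less of its RNA per cell cannot be told apart. C10orf55, a noncoding gene on the opposite strand, overlaps PLAU and had 5 counts over the 6 libraries. Which strand setting the counting used is not given.

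PLAT (Entrez 5327, chromosome 8, 42174718 to 42207565, minus strand), the tissue plasminogen activator gene, had few counts in every library. It had 0, 13 and 12 counts in ZEB1 replicates 1, 2 and 3, against 28, 52 and 43 counts in control replicates 1, 2 and 3. Scaled values overlapped, with 8.36 CPM in ZEB1 replicate 2 inside the control range of 4.49 to 9.48 CPM. The 0 counts in ZEB1 replicate 1 allow up to 2.35 CPM before TMM scaling (3 counts of its total), and the exact Poisson 95% interval, which is two-sided, ends at 2.89 CPM. Control replicate 1, the lowest of the controls, had 4.80 CPM before TMM scaling with such an interval of 3.19 to 6.94. Such intervals cover counting error only, and whether reads were collapsed to molecules is not given, so they may be too narrow.

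PLAT averaged 3.98 ± 4.19 CPM with the ZEB1 vector and 6.996 ± 2.49 CPM with the control vector (SD, n = 3 each). Its log2 fold change was -0.76 (SE 0.78; edgeR adjusted p = 0.830), with a 95% interval of -2.39 to 0.87. PLAT thus did not pass the test, and its ZEB1 libraries had a coefficient of variation of 105%. Over summed counts, 25 in the ZEB1 libraries and 123 in the controls, the ratio per total count was 0.558, with an exact 95% interval of 0.348 to 0.863 that covers counting error but not the spread between libraries. On leaving out single libraries the value ran from -1.60 to -0.31, the extremes being without ZEB1 replicates 2 and 1.

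PLAUR (Entrez 5329, chromosome 19, 43646095 to 43670169, minus strand), the urokinase receptor gene, had 209, 198 and 613 counts in ZEB1 replicates 1, 2 and 3, against 1408, 1200 and 1514 counts in control replicates 1, 2 and 3. This was 186, 127 and 183 CPM with the ZEB1 vector, against 226, 219 and 247 CPM with the control vector. Every ZEB1 library lay below every control, the deepest ZEB1 library included.

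PLAUR averaged 165 ± 32.9 CPM with the ZEB1 vector and 231 ± 14.7 CPM with the control vector (SD, n = 3 each), a ratio of 0.717. The log2 fold change was -0.48 (SE 0.17), with a 95% interval of -0.83 to -0.13, an unadjusted p of 0.00925 and an adjusted p of 0.305 in edgeR. By unadjusted p it ranked 342 among all tested genes, and PLAU ranked 684. Over 19 alternatives the value stayed between -0.61 and -0.33 and the adjusted p between 0.0759 and 1.00, the lowest in DESeq2. Unlike PLAU, PLAUR had a log2 fold change of -0.34 (SE 0.17) with ZEB1 replicate 3 as the only ZEB1 library. An annotated pseudogene and a noncoding gene of the RefSeq table overlap PLAUR and have no row in the deposited table.

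SERPINE2 (Entrez 5270, chromosome 2, 223975045 to 224039286, minus strand) encodes protease nexin-1, a heparin-binding serpin that inhibits urokinase, tissue plasminogen activator, plasmin and thrombin. It had 123, 253 and 475 counts in ZEB1 replicates 1, 2 and 3, against 754, 699 and 765 counts in control replicates 1, 2 and 3. This was 109, 163 and 141 CPM with the ZEB1 vector, against 121, 127 and 125 CPM with the control vector. The ZEB1 libraries lay on both sides of the controls, replicate 1 below and replicates 2 and 3 above.

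SERPINE2 averaged 138 ± 26.9 CPM with the ZEB1 vector and 124 ± 3.27 CPM with the control vector (SD, n = 3 each), a ratio of 1.11. Its log2 fold change was 0.16 (SE 0.17; edgeR adjusted p = 0.845). Its 95% interval, -0.20 to 0.51, leaves room for a small difference in either direction. Scaling by library size alone moved the median of all genes by -0.13, and SERPINE2 then had 0.03.

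The members shared the wider spread of the ZEB1 libraries, which over all genes had a biological coefficient of variation of 35.2%, against 18.8% in the controls. Among the controls the coefficient of variation of CPM was 2.93% for PLAU, 6.39% for PLAUR and 2.62% for SERPINE2, beside 2.66%, 2.71% and 3.68% for counting error alone. Among the ZEB1 libraries it was 29.5% for PLAU, 19.9% for PLAUR and 19.5% for SERPINE2, beside 6.30%, 6.18% and 6.88% for counting error alone. What set the wider spread was not tested. The edgeR fit gives each gene a single dispersion for both vectors, so its SEs, intervals and p-values do not allow for this difference in spread. The libraries at the extremes were not the same for each gene: ZEB1 replicate 1 was lowest for PLAU and SERPINE2, and replicate 2 was lowest for PLAUR and highest for SERPINE2.

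**Figure D2:**
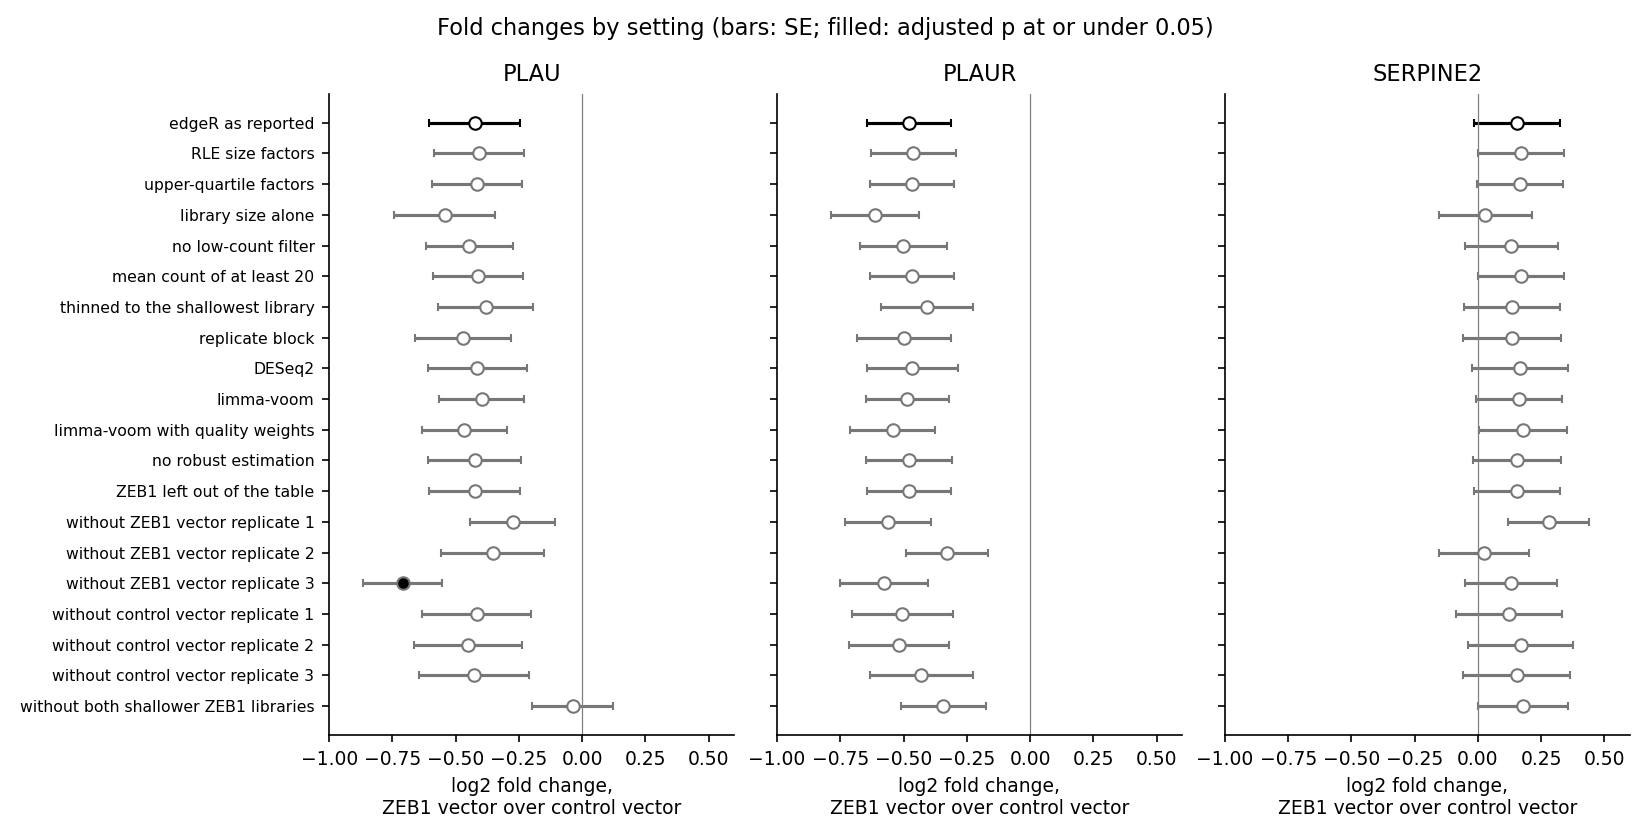
Log2 fold change with SE of PLAU, PLAUR and SERPINE2, ZEB1 vector over control vector, as reported and under 19 alternatives, with filled symbols where the adjusted p is at or under 0.05. PLAUR stays between -0.61 and -0.33, PLAU runs from -0.71 without ZEB1 replicate 3 to -0.04 without both shallower ZEB1 libraries, and SERPINE2 stays between 0.02 and 0.28.

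Ratios of counts within a library do not depend on how libraries are scaled to each other, so they address how the balance between protease, receptor and inhibitor mRNAs differed. A ratio of counts of different genes is not taken as a ratio of molecules and is read here only between the vectors. There were 1.24, 0.976 and 1.66 PLAU counts for each SERPINE2 count in ZEB1 replicates 1, 2 and 3, against 2.04, 1.82 and 1.93 in control replicates 1, 2 and 3. All 3 ZEB1 libraries lay below all 3 controls, replicate 3 included. How often ratios of other gene pairs separate in this way was not computed. Among single tested genes 15.1% did not overlap. The mean log2 ratio was 0.33 ± 0.38 with the ZEB1 vector and 0.95 ± 0.08 with the control vector (SD, n = 3 each), a difference of -0.61.

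PLAUR counts for each SERPINE2 count were 1.70, 0.783 and 1.29 in ZEB1 replicates 1, 2 and 3, against 1.87, 1.72 and 1.98 in control replicates 1, 2 and 3. The ZEB1 libraries again lay below the controls, replicate 1 only just. The difference in mean log2 ratio was -0.63, and without ZEB1 replicate 2 it was -0.32. For PLAU to SERPINE2 it ran from -0.81 to -0.43 on leaving out single libraries. Both ratios gave an exact two-sided permutation p of 0.10, which is the smallest that 3 libraries against 3 allow, and an adjusted p of 0.30 over the 6 pairs of members. This test can therefore not pass the threshold with 3 libraries a group, and no model-based test of the ratios was run.

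PLAU and PLAUR did not separate from each other between the vectors. Their log2 ratio averaged 0.07 ± 0.46 with the ZEB1 vector and 0.06 ± 0.09 with the control vector (SD, n = 3 each; exact permutation p = 1.0). Within the ZEB1 libraries it was -0.46, 0.32 and 0.36 in replicates 1, 2 and 3, so that replicate 1 had relatively little PLAU and the others relatively little PLAUR. The 3 ratios with PLAT overlapped between the vectors, with exact permutation p-values of 0.20 to 0.80.

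**Figure D3:**
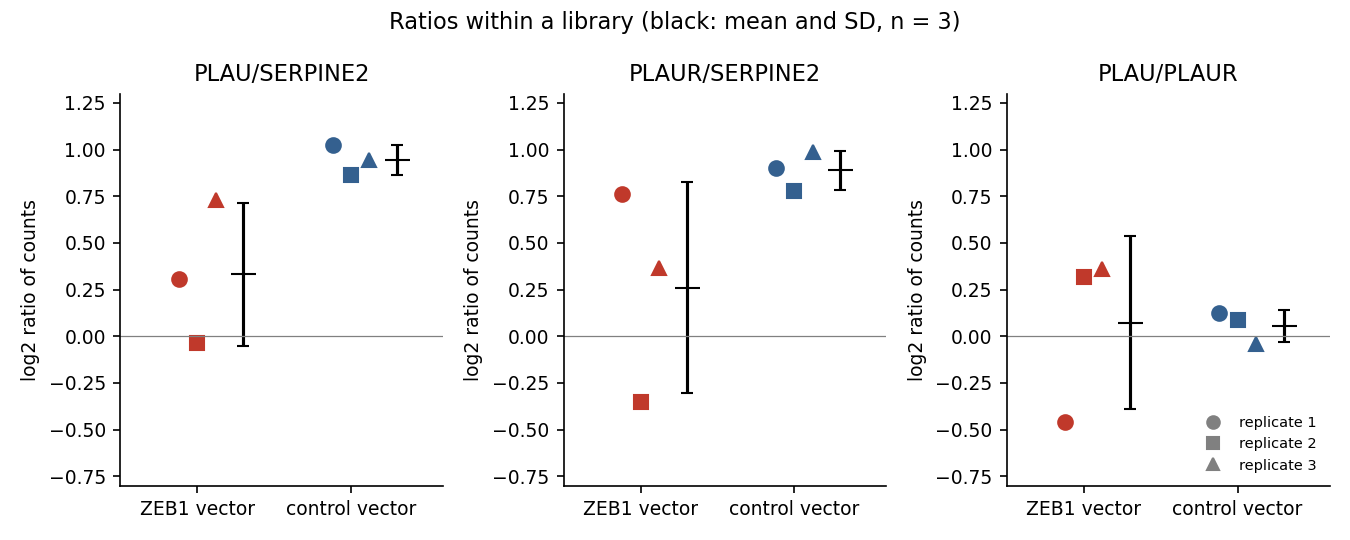
Log2 ratio of counts within each library for PLAU to SERPINE2, PLAUR to SERPINE2 and PLAU to PLAUR, with ZEB1 vector libraries left of control vector libraries and black bars for the mean and SD (n = 3). Both ratios to SERPINE2 are lower in every ZEB1 library than in every control, and PLAU to PLAUR overlaps. How often ratios of other gene pairs separate was not computed.

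The other genes of the system were described from lists by role, written with earlier results of these data known. Of their 131 members 0 passed the edgeR threshold in either direction, but those not tested could not pass. Over all 11329 tested genes 1 passed, ZEB1 itself. Plasmin and urokinase substrates had 16 of 24 genes tested. All 16 had a log2 fold change below 0, as did 51.5% of all tested genes, with a median of -0.42 beside -0.01 over all tested genes. At an unadjusted p under 0.05 there were 5 lower (MMP1, MMP9, FN1, IGFBP5 and CDCP1) and 0 higher. Over all tested genes 3.57% were lower at that level. In 5 of the substrates every ZEB1 library lay below every control, MMP13 in place of MMP1, beside 8.16% over all tested genes. FN1, the fibronectin gene, had 668 ± 64.6 CPM with the ZEB1 vector and 841 ± 59.8 CPM with the control vector (SD, n = 3 each, log2 fold change -0.33, edgeR adjusted p = 0.485). CDCP1, a transmembrane protein cut by plasmin, had 288 ± 37.0 CPM with the ZEB1 vector and 409 ± 62.1 CPM with the control vector (SD, n = 3 each, log2 fold change -0.50, edgeR adjusted p = 0.263). MMP9, MMP1, MMP13, MMP3 and IGFBP5 are described here after their values were seen. MMP9, the gelatinase that plasmin and other metalloproteinases can activate, had 131, 140 and 229 CPM in ZEB1 replicates 1, 2 and 3, against 316, 299 and 312 CPM in control replicates 1, 2 and 3, with a log2 fold change of -0.87 (SE 0.18, edgeR adjusted p = 0.160). Like PLAU, it was highest in replicate 3 among the ZEB1 libraries, but that library stayed below the controls. The collagenase gene MMP1 had a log2 fold change of -0.42 (SE 0.17), and MMP13, the collagenase of cartilage, one of -0.41 (SE 0.31). The stromelysin gene MMP3 had 8.20 ± 5.78 CPM with the ZEB1 vector and 10.8 ± 1.07 CPM with the control vector (SD, n = 3 each), with overlap. IGFBP5, a growth factor binding protein, had -0.98 (SE 0.44) on 5 to 43 counts in the ZEB1 libraries. The matrix glycoprotein gene THBS1 had a log2 fold change of -0.15 (SE 0.16).

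Ligands, partners and endocytic receptors of the urokinase receptor had 13 of 19 genes tested, 4 above and 9 below 0, with a median log2 fold change of -0.14. This median was -0.35 with no low-count filter, -0.30 after thinning, and -0.27 both without control replicate 3 and under library size alone. It was -0.09 without ZEB1 replicate 2 and -0.06 without both shallower ZEB1 libraries. The fibronectin receptor chain ITGA5 had 158, 139 and 198 CPM in ZEB1 replicates 1, 2 and 3, against 252, 232 and 243 CPM in control replicates 1, 2 and 3, a log2 fold change of -0.54 (SE 0.16, edgeR adjusted p = 0.235). Its groups did not overlap, as was so for ITGB5, named after its values were seen (-0.45, SE 0.21). In both genes every ZEB1 library lay below every control, as in 8.16% of tested genes. ITGA3, an integrin chain that binds laminin and associates with the urokinase receptor, had -0.33 (SE 0.16), and its common partner chain ITGB1 had -0.00 (SE 0.15). LRP1, which clears serpin complexes, and its chaperone LRPAP1 were also named after their values were seen. LRP1 had -0.06 (SE 0.43) and LRPAP1 had 0.01 (SE 0.16).

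Plasminogen and plasminogen-binding proteins had 7 of 8 genes tested, 5 above and 2 below 0, with a median log2 fold change of 0.11 that was -0.03 when only library size was scaled. The glycolytic enzyme ENO1, which also binds plasminogen at the cell surface, had -0.10 (SE 0.15), and the chromatin protein HMGB1 had 0.11 (SE 0.14). PLGRKT, a transmembrane plasminogen receptor named after its values were seen, had 0.66 (SE 0.32), with overlap. ANXA2, which docks plasminogen and tissue plasminogen activator, had 1089, 1001 and 975 CPM in ZEB1 replicates 1, 2 and 3, against 897, 952 and 850 CPM in control replicates 1, 2 and 3. Every ZEB1 library lay above every control, as in 6.96% of tested genes, with a log2 fold change of 0.18 (SE 0.14, edgeR adjusted p = 0.762).

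Other inhibitors of plasminogen activators or plasmin had 2 of 9 genes tested, TFPI2, a Kunitz inhibitor of plasmin, with a log2 fold change of -0.04 (SE 0.17), and SERPINB2, plasminogen activator inhibitor type 2, with 0.01 (SE 0.64). Other serpins had 7 of 22 genes tested, with a median of 0.09 that ran from -0.07 without control replicate 1 to 0.37 without control replicate 3. It was -0.04 under scaling by library size alone, 0.52 with no low-count filter and 0.75 with DESeq2, also run without that filter. SERPINB6, an intracellular serpin, had 0.43 (SE 0.24), the collagen chaperone SERPINH1 had -0.40 (SE 0.25), and the intracellular serpin SERPINB8 had 0.71 (SE 0.34). Every ZEB1 library lay above every control for SERPINB8, as in 6.96% of tested genes. SERPINB8 had 23.7 ± 4.22 CPM with the ZEB1 vector and 14.5 ± 1.26 CPM with the control vector (SD, n = 3 each, edgeR adjusted p = 0.531).

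Other proteins with the LY6/uPAR domain, the fold of the urokinase receptor, had 4 of 15 genes tested with a median of 0.36. This median was 0.01 without ZEB1 replicate 1, 0.12 without ZEB1 replicate 2 and 0.02 without ZEB1 replicate 3, 0.06 at a mean count of at least 20, and -0.15 without both shallower ZEB1 libraries. It also turned below 0 with no low-count filter, to -0.25, and with DESeq2, also run without that filter, to -0.22. Of these genes LY6E had -0.03 (SE 0.15), the complement regulator CD59 had 0.12 (SE 0.15) and LYPD1 had 0.60 (SE 0.76). Other pericellular serine proteases had 7 of 18 genes tested, with a median of 0.03 that was -0.10 under library size alone. PRSS23 had 0.06 (SE 0.17) and the proprotein convertase FURIN had -0.15 (SE 0.26). HTRA1 is a secreted protease that cuts cartilage matrix proteins. It averaged 27.2 ± 2.12 CPM with the ZEB1 vector and 44.8 ± 8.08 CPM in the controls (SD, n = 3 each). Every ZEB1 library lay below every control for HTRA1, as in 8.16% of tested genes. In edgeR its log2 fold change came to -0.72 (SE 0.26), at an adjusted p of 0.350.

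Transcription factors known to act on the urokinase or urokinase receptor promoters had all 16 genes tested, 7 above and 9 below 0, with a median log2 fold change of -0.13. On leaving out single libraries that median ran from -0.34, without ZEB1 replicate 3, to 0.02. The AP-1 gene FOSL1 had 82.6, 96.5 and 134 CPM in ZEB1 replicates 1, 2 and 3, against 181, 153 and 168 CPM in control replicates 1, 2 and 3. All ZEB1 libraries lay below all controls, with a log2 fold change of -0.66 (SE 0.18, edgeR adjusted p = 0.225). JUN, its partner in AP-1 dimers, had -0.42 (SE 0.20), and the zinc finger gene KLF6 had -0.27 (SE 0.18). FOSL2 and JUNB, a further pair of AP-1 genes named after their values were seen, also lay lower in every ZEB1 library than in every control. Of the 16 listed genes 3 lay all below, beside 8.16% of all tested genes. FOSL2 had 15.8 ± 1.57 CPM with the ZEB1 vector and 36.2 ± 7.93 CPM with the control vector (SD, n = 3 each, log2 fold change -1.18, edgeR adjusted p = 0.215). JUNB had 32.7 ± 7.87 CPM with the ZEB1 vector and 53.6 ± 8.77 CPM with the control vector (SD, n = 3 each, log2 fold change -0.68, edgeR adjusted p = 0.363). SP3, a GC-box factor also named after its values were seen, had 0.71 (SE 0.30, unadjusted p = 0.0285 in edgeR), with overlap.

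**Figure D4:**
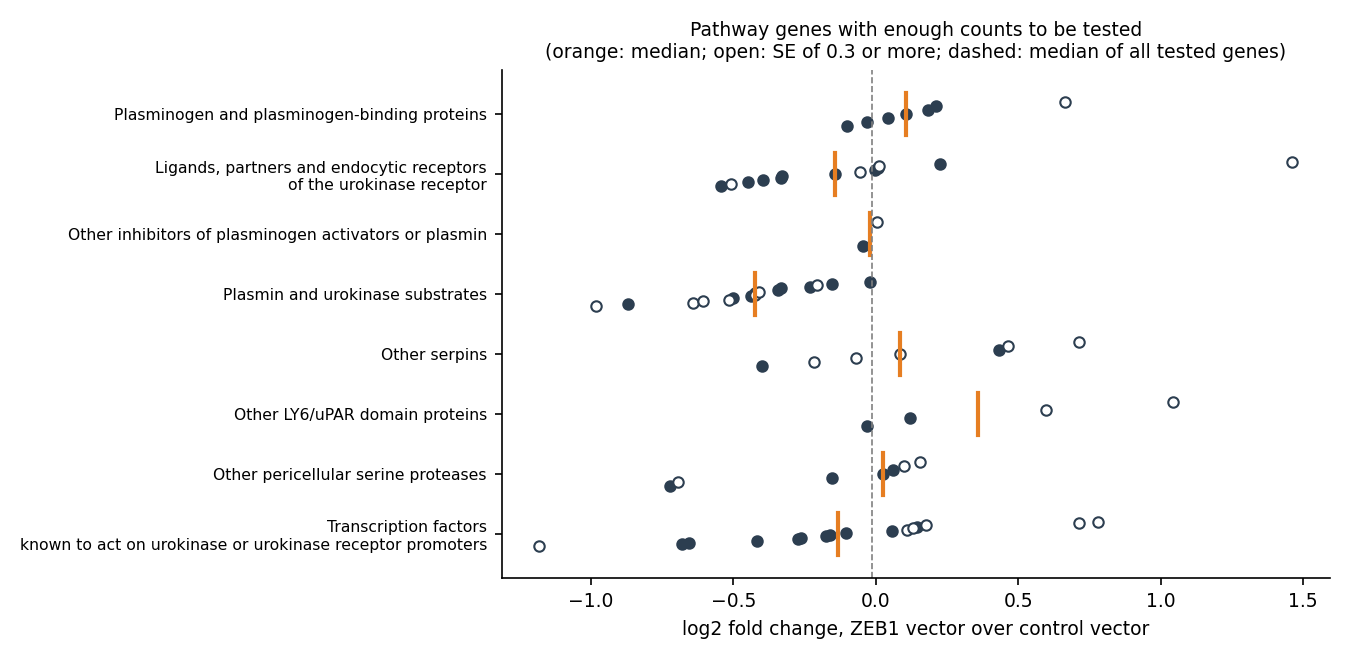
Log2 fold change, ZEB1 vector over control vector, of each tested gene in the 8 role lists, with orange bars for list medians, open symbols for an SE of 0.3 or more and a dashed line for the median of all tested genes. All 16 substrates lie below 0 with a median of -0.42, and the other medians lie between -0.14 and 0.36. The lists were written with earlier results of these data known, and no list was tested.

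The genes whose pattern over the 6 libraries was most like that of each member were ranked by the root mean square difference in log2 CPM, each gene centred on its own mean, among 5628 other genes whose mean count reached 100. For PLAU these were SMURF2, TOMM40 and NAT10, at 0.04, 0.04 and 0.05 log2 units, where the median gene differed by 0.39. For PLAUR they were CANT1, EIF2B5 and GPX8, at 0.05, 0.06 and 0.06 (median gene 0.38). For SERPINE2 they were ASNSD1, ATP6V1E1 and ACLY, at 0.02, 0.03 and 0.05 (median gene 0.31). PLAT, with its single library at 0 and a mean count of 24.7, had no close neighbour among these better counted genes. The nearest were SHB, ALDH16A1 and GGA1 at 0.53 to 0.58 (median gene 1.48). Genes counted as low as PLAT were not ranked. The members were left out of the ranking, and the closest genes were picked for a small distance, so the members are set beside the median gene. PLAU and PLAUR differed by 0.27, less than the median gene did from either. SERPINE2 differed by 0.38 from PLAU and by 0.46 from PLAUR, more than the median gene did from SERPINE2. PLAT differed from the other members by 1.27 to 1.48. The distances are a description over 6 libraries that share depth and scaling, and the closest genes were taken from all those ranked.

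**Figure D5:**
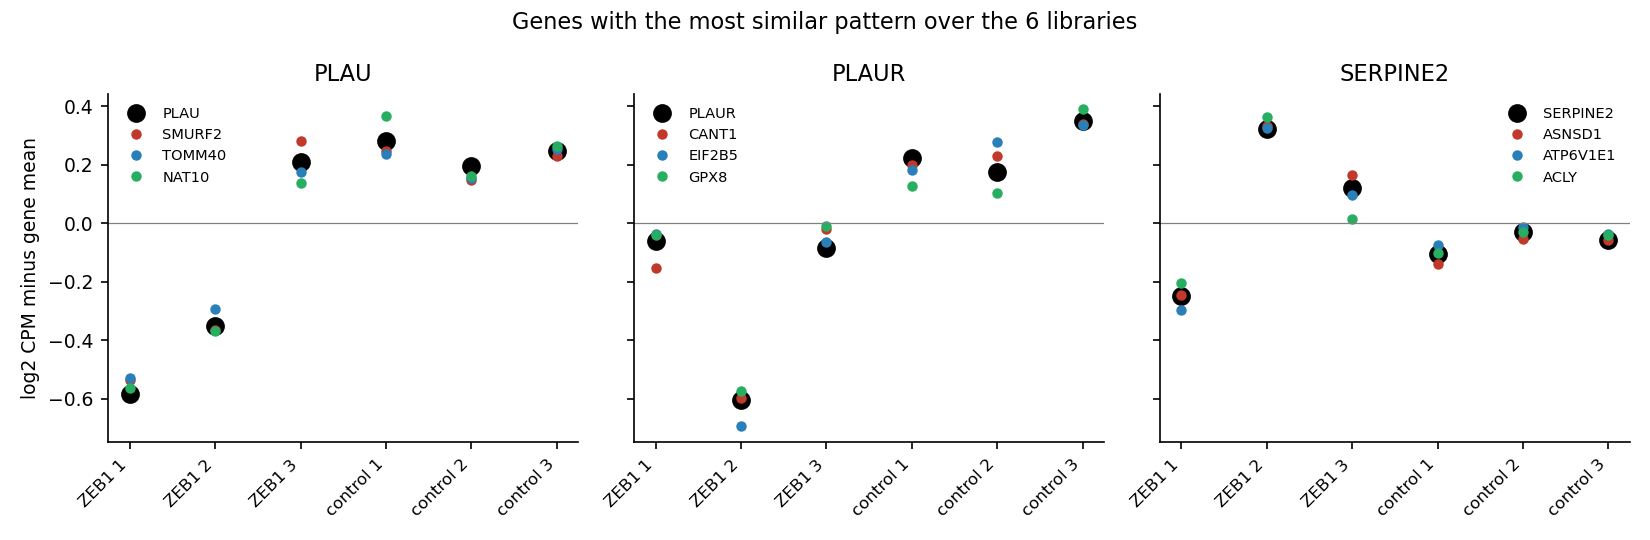
Log2 CPM minus the gene's mean in each of the 3 ZEB1 vector and 3 control vector libraries for PLAU, PLAUR and SERPINE2 (black) and the 3 genes with the most similar pattern (coloured). ZEB1 replicates 1 and 2 are low for PLAU and its neighbours, at -0.58 and -0.35 for PLAU, ZEB1 replicate 2 is low for PLAUR at -0.60, and the same library is high for SERPINE2 at 0.32.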

How the data were processed

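The authors deposited raw counts per Entrez gene ID for the 6 libraries. The submitters' processing notes name HISAT2, Subread, featureCounts and GRCh38 without versions. The sources used here do not give the annotation, the strand setting or whether molecular identifiers were collapsed. The labels do not say whether replicates were separate cultures. The p-values thus reflect the spread among these samples alone, and it may be technical. Symbols and positions came from RefSeq GRCh38.p14 (27745 of 28395 IDs matched), and strands from GENCODE v29. Some genes of this system are not reported here.

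The test was edgeR 4.0.16 under R 4.3.3 (quasi-likelihood, robust dispersions, TMM, filterByExpr, group only, two-sided, Benjamini-Hochberg over 11329 genes). SEs are approximate, derived from each fold change with its F value. The prior count was 2 for log2 CPM, and 0.5 was added to counts in ratios. Alternatives were DESeq2 1.42.0, limma-voom (limma 3.58.1) with and without quality weights, other scalings and count filters, non-robust dispersions, thinning, a replicate block, ZEB1 left out of the table and each library left out. DESeq2 was run without the low-count filter, so its difference from edgeR mixes method and filter. On counts simulated for this comparison, edgeR recovered 48% of 200 genes changed 2-fold among 10994 tested, with 7 false calls. No change smaller than 2-fold was simulated, and PLAU and PLAUR differed by less, with ratios of 0.735 and 0.717. The 48% is therefore not read as the power for the members, nor for the wider spread of the ZEB1 libraries.

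The members, lists and tests were chosen with earlier results of these data known. By the rule, the text names the members, any called list gene or otherwise the 3 tested genes of each list with the highest mean count, and the 3 most similar genes of each member. Further list and marker genes (MMP9, MMP1, MMP13, MMP3, IGFBP5, ITGB5, LRP1, LRPAP1, PLGRKT, FOSL2, JUNB, SP3 and the markers given) fall outside the rule, and the text names them after their values were seen.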

Additional observations from a re-analysis of the deposited data

How the results depend on the processing

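Over the alternatives run, PLAU, PLAUR and PLAT kept a log2 fold change below 0 and SERPINE2 one above 0. On leaving out single libraries the log2 fold change ran from -0.71 to -0.28 for PLAU, -0.58 to -0.33 for PLAUR, -1.60 to -0.31 for PLAT and 0.02 to 0.28 for SERPINE2. PLAU passed the threshold in 1 of 19 alternatives, without ZEB1 replicate 3 (adjusted p = 0.0173), and the cause was not tested. The genes past the threshold numbered 127 with no low-count filter, 201 with DESeq2, 58 with limma-voom, 154 with limma-voom with quality weights, 0 with ZEB1 itself left out of the table and 1 to 409 on leaving out single libraries, 409 being without ZEB1 replicate 3. Without both shallower ZEB1 libraries, added after seeing the data, there were 2, and the lone ZEB1 library is then assumed to vary like the controls. PLAT did not pass the filter after thinning, which therefore gives no value for it.

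Labels give both vectors replicate numbers 1 to 3, but same-numbered libraries did not deviate together (correlations of -0.032, -0.0095 and 0.0087), and no ZEB1 library correlated best with its own number. With the replicate number as a block, 1 gene passed, and the log2 fold changes were -0.47 for PLAU, -0.50 for PLAUR, -1.13 for PLAT and 0.14 for SERPINE2. The paired ratios of PLAU and of PLAUR to SERPINE2 gave an exact sign-flip permutation p of 0.25, the smallest that 3 pairs allow.

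On leaving out single libraries the difference in log2 ratio ran from -2.08 to 0.34 for PLAT to PLAUR, -0.06 to 1.97 for PLAU to PLAT and -0.13 to 0.28 for PLAU to PLAUR. Among list medians that changed sign, the other inhibitors had 0.60 with no low-count filter and 0.63 with DESeq2, the pericellular proteases -0.16 without control replicate 3 and -0.30 without both shallower ZEB1 libraries, and the transcription factors 0.09 without both shallower ZEB1 libraries. The DESeq2 medians also come from a fit without the low-count filter. For PLAT, depth and spread between libraries were not separated.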
